A study of Mus musculus with 12 samples.

Results

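Respiratory complexes I, III, IV and V were followed through 37 nuclear genes, which were the rows of the deposited table that carry the symbols of 17 subunits of complex I, 7 of complex III with cytochrome c, 6 of complex IV and 7 of complex V, among 60683 rows in all. Of the 37 genes, 30 reached 1 TPM (transcript level scaled for gene length and library size) in at least 1 library and are called measured here, and all 30 also passed the filter for testing. RNA was sequenced from EMT6, a mouse breast cancer cell line, in 12 libraries. The groups were cells carrying a short hairpin RNA against ISG20, an interferon-induced exonuclease (shISG20), at 1% O2, the same cells at 20% O2, control cells (shNTC, labelled wild type in genotype) at 1% O2, and control cells at 20% O2, with 3 libraries each and 48 hours of exposure. Replicate 3 of shISG20 cells at 20% O2 is labelled 484 hours in place of 48. The labels speak of subclones, so each hairpin stands for a single cell population, and what comes from ISG20 loss and what comes from the choice of subclone cannot be told apart. The libraries are labelled biological replicates but not as separate cultures, and p-values thus reflect the scatter among these libraries only, part of which may be technical.

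Complexes I, III and IV of the inner mitochondrial membrane pass electrons from NADH through ubiquinone and cytochrome c to oxygen and pump protons, and complex V, the ATP synthase, uses the proton gradient to make ATP. Their subunits are encoded by the nuclear genome except for a small set in mitochondrial DNA, and promoters of the nuclear genes are known for sites of NRF1, GABP and YY1. In low oxygen, cells are known to turn from respiration towards glycolysis, with exchange of complex IV subunit COX4I1 for COX4I2 and induction of NDUFA4L2 as known targets of hypoxia-inducible factor.

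The deposited table lists human genes although the cells are mouse, so a level depends on how well mouse reads aligned to the human gene and levels cannot be compared between genes. The reads recovered from the values came to 3173991 to 5201799 per library. ISG20 itself was at 0.413, 0.595 and 0.689 TPM in shISG20 cells against 8.81, 8.44 and 7.59 TPM in shNTC cells at 1% O2, and at 0.215, 0.135 and 0.323 TPM in shISG20 cells against 2.03, 2.65 and 2.70 TPM in shNTC cells at 20% O2, which matches the labels. Of the epithelial markers, 3 of 5 reached 1 TPM and CDH1 was at 0 in every library. Their summed level was 228 to 235 TPM in shISG20 cells at 1% O2 and 47.0 to 57.4 TPM at 20% O2, and 197 to 214 TPM in shNTC cells at 1% O2 and 41.9 to 53.4 TPM at 20% O2. The 3 mesenchymal markers, vimentin foremost, summed to 8520 to 8729 TPM in shISG20 cells at 1% O2 and 2362 to 2622 TPM at 20% O2, and to 7454 to 7632 TPM in shNTC cells at 1% O2 and 3199 to 3253 TPM at 20% O2. The 3 endothelial and 4 of the 5 leucocyte markers were at 0 in every library, and the fibroblast markers summed to at most 8.27 TPM. The remaining leucocyte marker, CSF1R, was at 1.18 to 2.74 TPM in shISG20 cells and 1.70 to 3.23 TPM in shNTC cells at 1% O2, and at no more than 0.150 and 0.135 TPM at 20% O2. These markers moved with oxygen, but the sums hide opposite directions. At 1% against 20% O2, 2 mesenchymal markers rose and 1 fell in each subclone, and 1 fibroblast marker rose and 1 fell. In shNTC cells fibronectin fell (-1.465 on the log2 scale) while vimentin rose (1.79), and PDGFRB fell (-2.04) while PDGFRA rose (0.90). At 20% O2 markers also differed with the knockdown, where fibronectin (FN1, -0.81, limma adjusted p = 0.000117) and S100A4 (-1.29, adjusted p = 0.000155) were lower and KRT19 (0.74, limma adjusted p = 0.0213) was higher in shISG20 than in shNTC cells on the log2 scale. At 1% O2 vimentin was higher in shISG20 cells (0.23, limma adjusted p = 0.00221). The 3 mesenchymal markers also passed for the difference of the oxygen effects between subclones. Their part in the results on the subunits was not tested.

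Coverage was uneven within each complex. Measured were 14 of 17 genes of complex I, 6 of 7 of complex III with cytochrome c, 4 of 6 of complex IV and 6 of 7 of complex V. NDUFB5 (an accessory subunit), NDUFV2 (an iron-sulfur subunit next to the NADH site) and ATP5PO (the stalk subunit that binds the ATP synthase head) were listed at 0 in every library. NDUFA9, UQCRQ, COX6A1 and COX6C stayed under 1 TPM, with their highest values at 0.0486, 0.611, 0.576 and 0.520 TPM, while the lowest maxima on the measured side were those of NDUFS7 at 1.86 TPM and CYCS at 2.60 TPM. A gene at or near 0 may be one whose mouse reads did not align to the human row. The rows ranged over 58 reads in all libraries together for NDUFB10 and 69 for COX7A2 to 121051 for ATP5F1B, so small changes were detectable only for the deeper rows.

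Promoter sequence was read for 27 of the 37 genes from RefSeq windows of the mouse build GRCm38.p6, which run from 250 bases before to 50 bases after each gene's start. The NRF1 core GCGCANGCG was present on either strand in 8 of the 27 genes (29.6%), against 7.03% of 27025 genes. These were ATP5F1C, ATP5MC3, ATP5PO, COX6A1, CYCS, NDUFA8, NDUFB10 and UQCRC1. The YY1 core AAGATGGCG was present in 2 (7.41%, against 1.64% of genes), NDUFA9 and NDUFS7. The ETS core CCGGAAG bound by GABP was present in 3 (11.1%, against 9.93% of genes), COX6A1, NDUFS3 and NDUFS8. The hypoxia response core ACGTG was present in 8 (29.6%, against 21.8% of genes), ATP5MC1, ATP5MC3, ATP5PB, COX5A, CYCS, NDUFA1, NDUFB10 and NDUFV1. In these windows 0 pairs of matches to different motifs shared a base. The 150 bases before the start are shown for 3 genes, ATP5MC1 (Atp5g1, chr11:96075632-96075781, minus strand), CYCS (Cycs, chr6:50566570-50566719, minus strand) and NDUFS3 (Ndufs3, chr2:90904722-90904871, minus strand), each 5′ to 3′ on the gene's strand with matches in capitals. The rows of ATP5MC1 and NDUFS3 moved with oxygen, and that of CYCS did so only when summed with its pseudogene rows, as given below. Capitals mark the hypoxia response core in ATP5MC1, where the match nearer the start is read on both strands, the NRF1 core in CYCS and the ETS core in NDUFS3.
ATP5MC1: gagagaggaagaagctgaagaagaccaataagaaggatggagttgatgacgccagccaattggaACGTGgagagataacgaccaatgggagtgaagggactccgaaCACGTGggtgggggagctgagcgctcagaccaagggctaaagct
CYCS: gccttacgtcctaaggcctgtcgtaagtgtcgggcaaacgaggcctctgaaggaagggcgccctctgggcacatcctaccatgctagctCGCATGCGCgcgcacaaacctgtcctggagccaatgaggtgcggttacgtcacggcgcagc
NDUFS3: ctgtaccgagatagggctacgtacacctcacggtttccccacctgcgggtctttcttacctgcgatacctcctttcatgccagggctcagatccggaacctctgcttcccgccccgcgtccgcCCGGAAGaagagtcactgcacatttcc
A match is a string of letters and no evidence that the factor binds there.

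The knockdown was compared with the control at 20% O2 first. Of the 30 subunit transcripts tested, 5 were higher in shISG20 cells than in shNTC cells at 20% O2, and 0 were lower. They were NDUFV1 of complex I, COX5B of complex IV, and ATP5F1B, ATP5MC1 and ATP5MC3 of complex V, by log2 fold changes of 0.18 to 0.47. The calls by limma (adjusted p under 0.05 over all rows) took 16.7% of the subunits in the higher direction, beside 5.05% of all 14389 rows tested, and none in the lower direction, beside 6.55% of all rows. The median log2 fold change of the 30 was 0.19, against 0.01 over all rows, and 26 of the 30 (86.7%) were above 0, against 51.9% of all rows. At an unadjusted p under 0.05 by limma 8 were higher and 0 lower, beside 1796 and 1794 of all 14389 rows. By voom on the recovered reads, at an adjusted p under 0.05, 6 were higher and 0 lower, beside 1249 and 1230 of all rows. The 5 were 1 of 14 genes of complex I, 1 of 4 of complex IV and 3 of 6 of complex V, and the same 5 were called with median-of-ratios scaling. In bulk RNA, a change in the cells that carry a transcript and a change in RNA per cell cannot be told apart.

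NDUFV1 (ENSG00000167792), the flavoprotein that takes electrons from NADH, was at 128, 129 and 130.3 TPM in shISG20 cells and at 100.5, 108 and 105 TPM in shNTC cells at 20% O2. All 3 shISG20 libraries lay above all 3 shNTC libraries (log2 fold change 0.30, SE 0.056, limma adjusted p = 0.00585). COX5B (ENSG00000135940), a zinc-binding subunit of complex IV, was at 139, 126 and 129 TPM in shISG20 cells and at 99.2, 110.2 and 98.2 TPM in shNTC cells. Its groups did not overlap either (0.36, SE 0.061, adjusted p = 0.00406).

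Within complex V, the catalytic beta subunit ATP5F1B (ENSG00000110955) was at 3396, 3372 and 3341 TPM in shISG20 cells and at 2939, 3004 and 2962 TPM in shNTC cells at 20% O2. The shift was small but wider than the spread within either group (0.18, SE 0.021, limma adjusted p = 0.00037). ATP5MC1 and ATP5MC3 are separate genes for the same mature subunit c, which forms the rotor ring in the membrane. ATP5MC1 (ENSG00000159199) was at 70.8, 77.2 and 77.6 TPM in shISG20 cells and at 49.9, 50.8 and 62.4 TPM in shNTC cells, so that the groups did not overlap (0.47, SE 0.12, adjusted p = 0.0292). ATP5MC3 (ENSG00000154518) was at 286, 279 and 289.8 TPM in shISG20 cells and at 230.0, 250.5 and 244 TPM in shNTC cells, again without overlap (0.24, SE 0.041, adjusted p = 0.00419). The ATP5MC1 call was lost when any 1 of 5 of the 6 libraries compared was left out, the exception being replicate 3 of shNTC cells, and the ATP5F1B call was lost without a variance trend. Without replicate 3 of shISG20 cells, the library labelled 484 hours, 4 subunits were called.

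**Figure D1:**
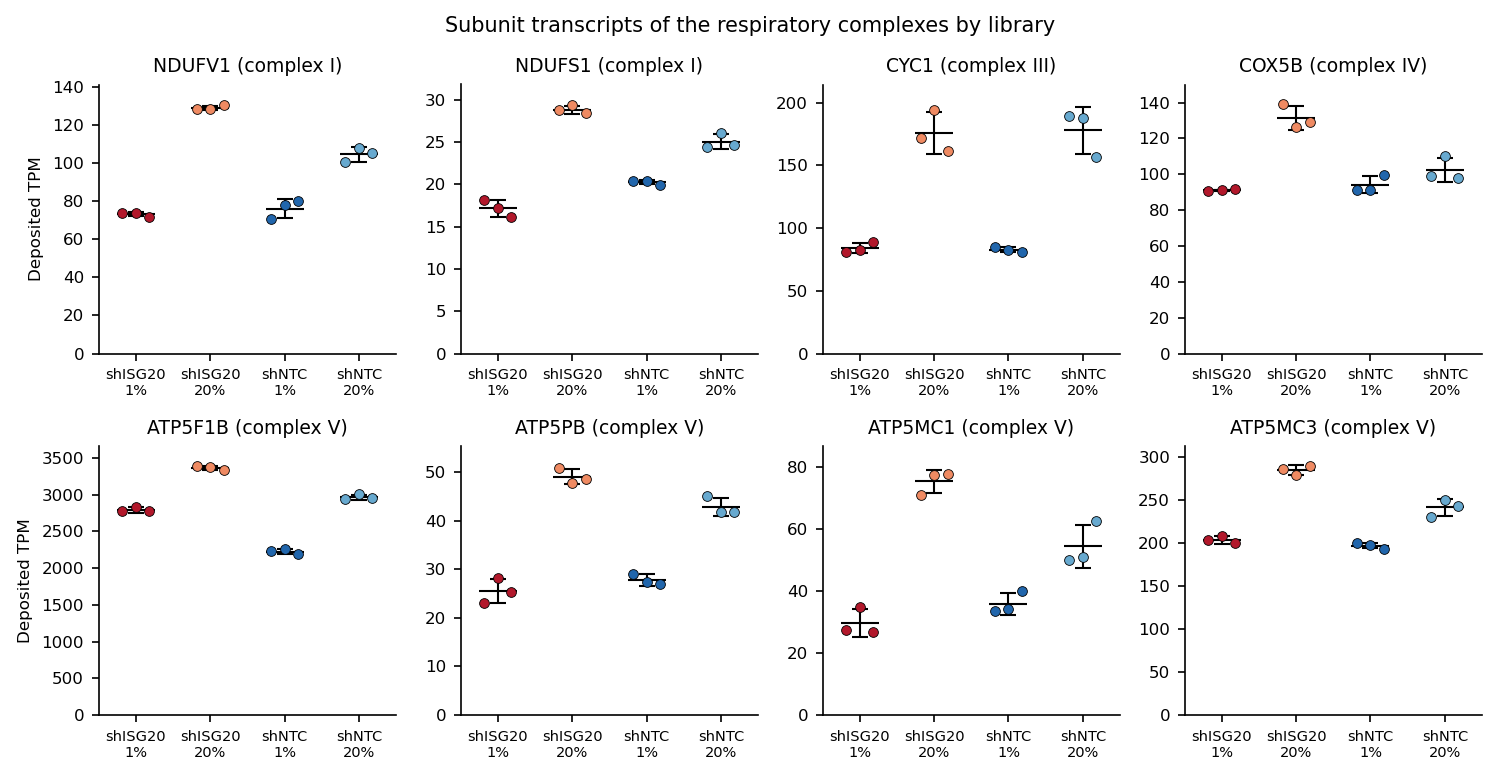
Deposited TPM of 8 subunit genes in each library, by group, with points for the 3 libraries and bars for the mean ± SD. NDUFV1, COX5B, ATP5F1B, ATP5MC1 and ATP5MC3 sit higher in shISG20 than in shNTC cells at 20% O2, and CYC1 and ATP5PB sit lower at 1% O2 than at 20% O2 in both subclones.

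At 1% O2 the same comparison gave 1 subunit that was higher in shISG20 cells and 1 that was lower, among the 30 tested. ATP5F1B was higher and NDUFS1 was lower, shares of 3.33% each, beside 4.25% of all rows higher and 9.66% lower. The median log2 fold change of the subunits was 0.01, against -0.07 over all rows. ATP5F1B was at 2774, 2839 and 2774 TPM in shISG20 cells and at 2235, 2256 and 2192 TPM in shNTC cells at 1% O2. The lowest shISG20 library lay above the highest shNTC library by more than the whole range of either group (0.33, SE 0.021, limma adjusted p = 1.37e-05), and the call was kept in all 17 alternatives run for it. NDUFS1 (ENSG00000023228), the large iron-sulfur subunit that carries electrons on from NDUFV1, was at 18.2, 17.2 and 16.1 TPM in shISG20 cells and at 20.4, 20.4 and 20.0 TPM in shNTC cells. The groups did not overlap (-0.23, SE 0.069, limma adjusted p = 0.0496), but the call was lost in 10 of 17 alternatives, among them each of the 6 that left out a library and the fit with a replicate block. With median-of-ratios scaling ATP5F1A, the alpha subunit of ATP synthase, was also higher in shISG20 cells at 1% O2 (0.19, limma adjusted p = 0.0351).

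The other 4 subunits that rose at 20% O2 did not pass at 1% O2. NDUFV1 was at 73.8, 73.8 and 71.9 TPM in shISG20 cells and at 70.4, 78.1 and 79.98 TPM in shNTC cells at 1% O2, so that the groups overlapped (-0.06, limma adjusted p = 0.583). COX5B was at 90.6, 91.0 and 91.5 TPM in shISG20 cells and at 91.4, 91.4 and 99.7 TPM in shNTC cells (-0.05, adjusted p = 0.678). ATP5MC1 was at 27.4, 34.7 and 26.7 TPM in shISG20 cells and at 33.4, 34.1 and 39.9 TPM in shNTC cells (-0.27, adjusted p = 0.169), and ATP5MC3 at 203, 208 and 199.9 TPM in shISG20 cells and 200.0, 198 and 194 TPM in shNTC cells (0.05, adjusted p = 0.512). In each of these genes the libraries of the subclones overlapped at 1% O2.

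Oxygen changed the subunits in both subclones. In shISG20 cells, 13 of the 30 subunits were lower and 1 was higher at 1% O2 than at 20% O2, shares of 43.3% and 3.33%, beside 42.8% of all rows lower and 14% higher. In shNTC cells, 11 were lower and 3 higher, shares of 36.7% and 10.0%, beside 38.1% of all rows lower and 12.8% higher. The share of subunits that fell was thus near that of all rows. The median log2 fold change was -0.28 for the subunits and -0.35 for all rows in shISG20 cells, and -0.14 and -0.28 in shNTC cells. With median-of-ratios scaling, which brings the median of all rows to 0, 5 subunits were lower and 7 higher in shISG20 cells (26.6% of all rows lower and 26.3% higher), and 3 were lower and 6 higher in shNTC cells (22.3% of all rows lower and 23% higher). The direction of small oxygen changes therefore rests on the scaling. On deposited TPM, with quantile normalization, with median-of-ratios scaling and by voom, CYC1 and ATP5PB were called lower in both subclones. So were NDUFV1, NDUFS1 and ATP5MC1 in shISG20 cells and ATP5F1B in shNTC cells.

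**Figure D2:**
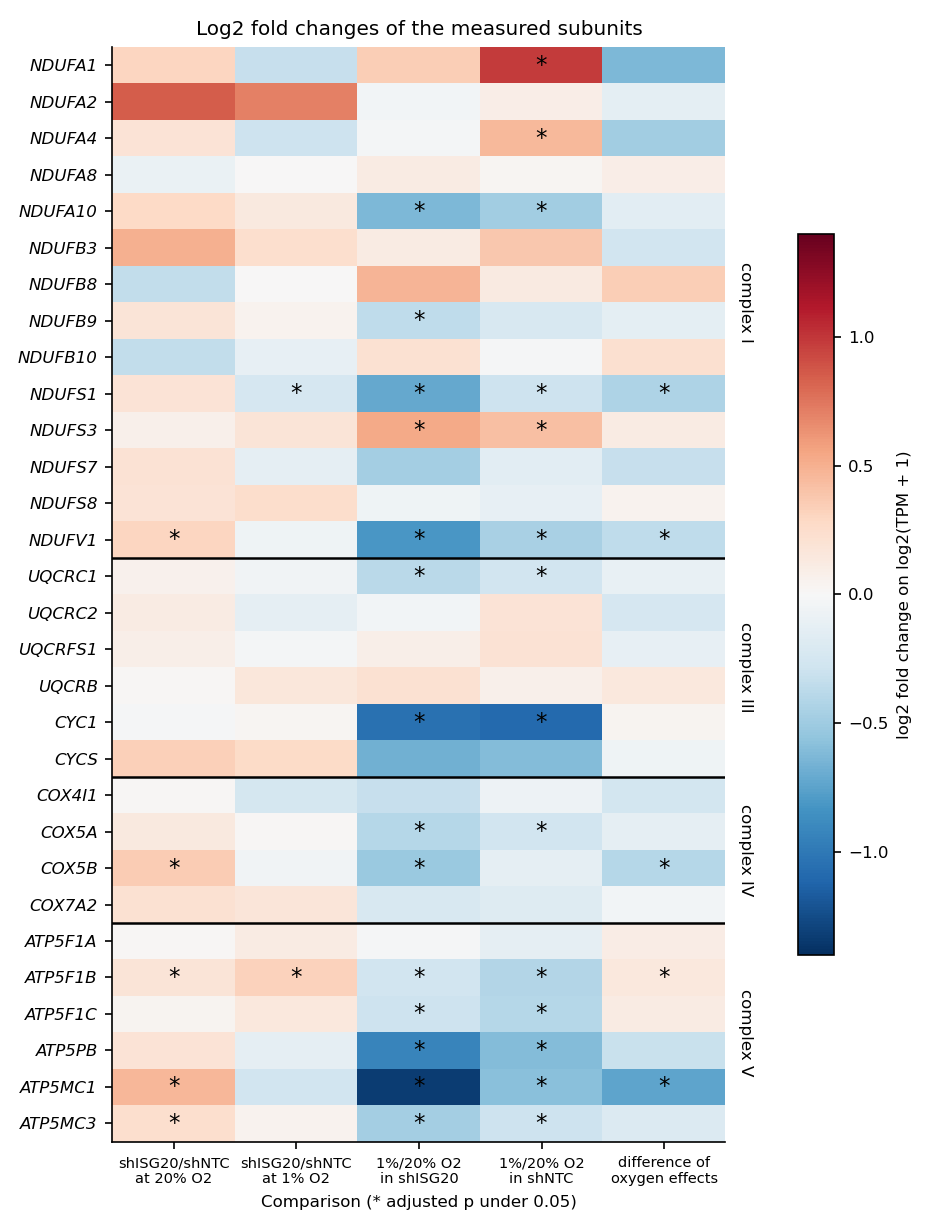
Log2 fold changes on log2(TPM + 1) of the 30 measured subunits (rows, by complex) in the 5 comparisons (columns), with red for higher and blue for lower in the first-named condition and an asterisk for an adjusted p under 0.05. The knockdown columns hold 5 and 2 asterisks, the oxygen columns 14 each and the last column 5.

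In complex I, 4 of the 14 genes (28.6%) fell and 1 (7.14%) rose at 1% O2 in shISG20 cells, beside 42.8% of all rows lower and 14% higher. In shNTC cells 3 (21.4%) fell and 3 (21.4%) rose, beside 38.1% of all rows lower and 12.8% higher. NDUFV1 fell by 0.81 (SE 0.056, limma adjusted p = 3.51e-07) in shISG20 cells and by 0.45 (adjusted p = 4.39e-05) in shNTC cells, its values at the oxygen levels being those given above. NDUFS1 at 20% O2 was at 28.8, 29.4 and 28.4 TPM in shISG20 cells and at 24.4, 26.0 and 24.7 TPM in shNTC cells. Every library at 1% O2 was below every library at 20% O2 in both genes. NDUFS1 fell by 0.72 (SE 0.069, adjusted p = 5.2e-06) in shISG20 cells and by 0.29 (adjusted p = 0.00456) in shNTC cells, where the value turned to 0.02 and 0.04 with quantile and median-of-ratios scaling. NDUFA10, an accessory subunit of the membrane arm, was at 3.32, 3.22 and 3.95 TPM at 1% O2 and 5.71, 6.25 and 5.87 TPM at 20% O2 in shISG20 cells, and at 3.63, 3.09 and 2.57 TPM at 1% O2 and 3.74, 5.65 and 4.88 TPM at 20% O2 in shNTC cells. The oxygen levels did not overlap in either subclone (-0.63, limma adjusted p = 0.00542, and -0.49, adjusted p = 0.0245), although both calls were lost with quantile and median-of-ratios scaling.

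NDUFA1 (ENSG00000125356), a small membrane-arm subunit, went the other way. It was at 32.4, 24.6 and 13.4 TPM at 1% O2 and 16.5, 18.4 and 16.5 TPM at 20% O2 in shISG20 cells, and at 23.99, 31.3 and 28.9 TPM at 1% O2 and 9.88, 16.1 and 15.9 TPM at 20% O2 in shNTC cells. The oxygen levels were apart in shNTC cells (0.98, SE 0.27, limma adjusted p = 0.0112) and overlapped in shISG20 cells (0.35, adjusted p = 0.302), and the difference between these effects did not pass (-0.63, SE 0.39, adjusted p = 0.378). Its rows held 173 reads in all libraries together. NDUFS3, a core subunit near the ubiquinone site that is named after its values were seen, was the complex I gene that rose in both subclones. It was at 53.1, 48.9 and 53.0 TPM at 1% O2 and 36.5, 34.1 and 35.7 TPM at 20% O2 in shISG20 cells, and at 45.9, 47.3 and 43.5 TPM at 1% O2 and 39.1, 30.4 and 32.4 TPM at 20% O2 in shNTC cells. Its libraries did not overlap in either subclone (0.53, adjusted p = 0.000385, and 0.42, limma adjusted p = 0.00228), and with median-of-ratios scaling the values were 0.94 and 0.75. NDUFA4, also named after its values were seen and now counted with complex IV, rose in shNTC cells (0.45, limma adjusted p = 0.0435), a call lost by voom (adjusted p = 0.0536) and with its pseudogene rows summed (0.15, adjusted p = 0.671).

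In complex III with cytochrome c, 2 of 6 genes (33.3%) fell in each subclone, CYC1 and UQCRC1. Of all rows, 42.8% fell in shISG20 and 38.1% in shNTC cells. CYC1 (ENSG00000179091), the haem protein cytochrome c1 that hands electrons to cytochrome c, was at 81.2, 82.2 and 89.2 TPM at 1% O2 and 172, 194 and 161 TPM at 20% O2 in shISG20 cells. In shNTC cells it was at 84.9, 82.2 and 80.8 TPM at 1% O2 and 189.7, 188 and 156 TPM at 20% O2. The oxygen levels were far apart in both subclones and the subclones overlapped at each oxygen level. CYC1 fell by 1.05 (SE 0.086, limma adjusted p = 1.5e-06) in shISG20 cells and by 1.09 (SE 0.086, adjusted p = 1.54e-06) in shNTC cells, 0.70 and 0.81 below the median of all rows, and with median-of-ratios scaling the values were -0.63 and -0.75. The difference between the effects was 0.04 (SE 0.12, adjusted p = 0.883). UQCRC1, a core protein, fell by less (-0.38 in shISG20 and -0.27 in shNTC cells), and its values turned to 0.04 and 0.07 with median-of-ratios scaling. UQCRFS1, the Rieske iron-sulfur protein, was at 5.76, 5.72 and 2.75 TPM at 1% O2 and 3.498, 5.66 and 3.75 TPM at 20% O2 in shISG20 cells, and at 4.91, 4.11 and 4.98 TPM at 1% O2 and 3.82, 3.07 and 5.07 TPM at 20% O2 in shNTC cells. These groups overlapped (0.09, limma adjusted p = 0.80, and 0.20, adjusted p = 0.549).

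In complex IV, 2 of 4 genes (50%) fell in shISG20 cells and 1 (25%) in shNTC cells, beside 42.8% and 38.1% of all rows. COX5A (ENSG00000178741), a nuclear subunit on the matrix side, was at 315, 319 and 303 TPM at 1% O2 and 447, 394 and 395 TPM at 20% O2 in shISG20 cells, and at 313, 295 and 319.5 TPM at 1% O2 and 342, 395 and 384 TPM at 20% O2 in shNTC cells. The oxygen levels did not overlap in either subclone (-0.40, limma adjusted p = 0.000312, and -0.27, adjusted p = 0.00467), but the values lay within 0.05 of the median of all rows and became 0.03 and 0.07 with median-of-ratios scaling. COX5B fell by 0.52 (SE 0.061, adjusted p = 2.44e-05) in shISG20 cells, with every library at 1% O2 below every library at 20% O2. In shNTC cells the COX5B libraries overlapped (-0.12, limma adjusted p = 0.126), and the value was 0.22 with median-of-ratios scaling. COX4I1, the subunit that COX4I2 replaces in hypoxia, was at 5.04, 2.15 and 3.08 TPM at 1% O2 and 4.80, 4.23 and 4.01 TPM at 20% O2 in shISG20 cells, and at 3.67, 3.75 and 4.78 TPM at 1% O2 and 4.17, 3.80 and 4.95 TPM at 20% O2 in shNTC cells. Its groups overlapped (-0.32, limma adjusted p = 0.231, and -0.07, adjusted p = 0.82). COX4I2 was listed at 0 in every library, and NDUFA4L2 had 1 read in shISG20 cells at each oxygen level and 0 in shNTC cells, so the isoform exchange could not be followed here.

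Complex V had the largest share of calls, with 5 of 6 genes (83.3%) lower at 1% O2 in each subclone. Of all rows, 42.8% were lower in shISG20 and 38.1% in shNTC cells. The median log2 fold change of the 6 complex V genes was -0.39 in shISG20 and -0.41 in shNTC cells, against -0.35 and -0.28 over all rows. With median-of-ratios scaling the median was 0.03 and -0.07, with 2 higher and 2 lower in shISG20 cells and 1 higher and 2 lower in shNTC cells. Under that scaling 26.6% of all rows were lower and 26.3% higher in shISG20 cells, and 22.3% and 23% in shNTC cells. ATP5MC1 fell by 1.32 (SE 0.12, limma adjusted p = 3.11e-06) in shISG20 cells, 0.97 below the median of all rows, and by 0.59 (adjusted p = 0.00175) in shNTC cells. ATP5MC3 fell by 0.48 (adjusted p = 2.06e-06) in shISG20 cells and by 0.29 (adjusted p = 0.00014) in shNTC cells, and in shNTC cells the value was 0.05 with median-of-ratios scaling. For both subunit c genes, every library at 1% O2 lay below every library at 20% O2 of the same subclone. ATP5PB (ENSG00000116459), the stalk subunit b that holds the head still, was at 23.0, 28.1 and 25.4 TPM at 1% O2 and 50.9, 47.8 and 48.7 TPM at 20% O2 in shISG20 cells, and at 29.1, 27.4 and 26.9 TPM at 1% O2 and 45.1, 41.9 and 41.8 TPM at 20% O2 in shNTC cells. The oxygen levels were well apart (-0.92, SE 0.079, limma adjusted p = 2.06e-06, and -0.61, SE 0.079, adjusted p = 6.94e-05), and the calls were kept in all 17 alternatives run for each.

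ATP5F1B of the catalytic head fell by 0.27 (SE 0.021, limma adjusted p = 1.03e-06) in shISG20 cells and by 0.41 (SE 0.021, adjusted p = 5.36e-08) in shNTC cells, and with median-of-ratios scaling the value in shISG20 cells turned to 0.15 (limma adjusted p = 0.000259). The ATP5F1B call in shNTC cells was kept in all 17 alternatives run for it. ATP5F1A, its alpha partner, was at 121, 125 and 120.2 TPM at 1% O2 and 132, 122 and 119 TPM at 20% O2 in shISG20 cells, and at 108, 117 and 112 TPM at 1% O2 and 119, 125 and 126 TPM at 20% O2 in shNTC cells. These libraries overlapped in shISG20 cells and not in shNTC cells, and neither value passed (-0.02, limma adjusted p = 0.76, and -0.13, adjusted p = 0.0684). With median-of-ratios scaling ATP5F1A was called higher at 1% O2, by 0.40 in shISG20 and 0.21 in shNTC cells.

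**Figure D3:**
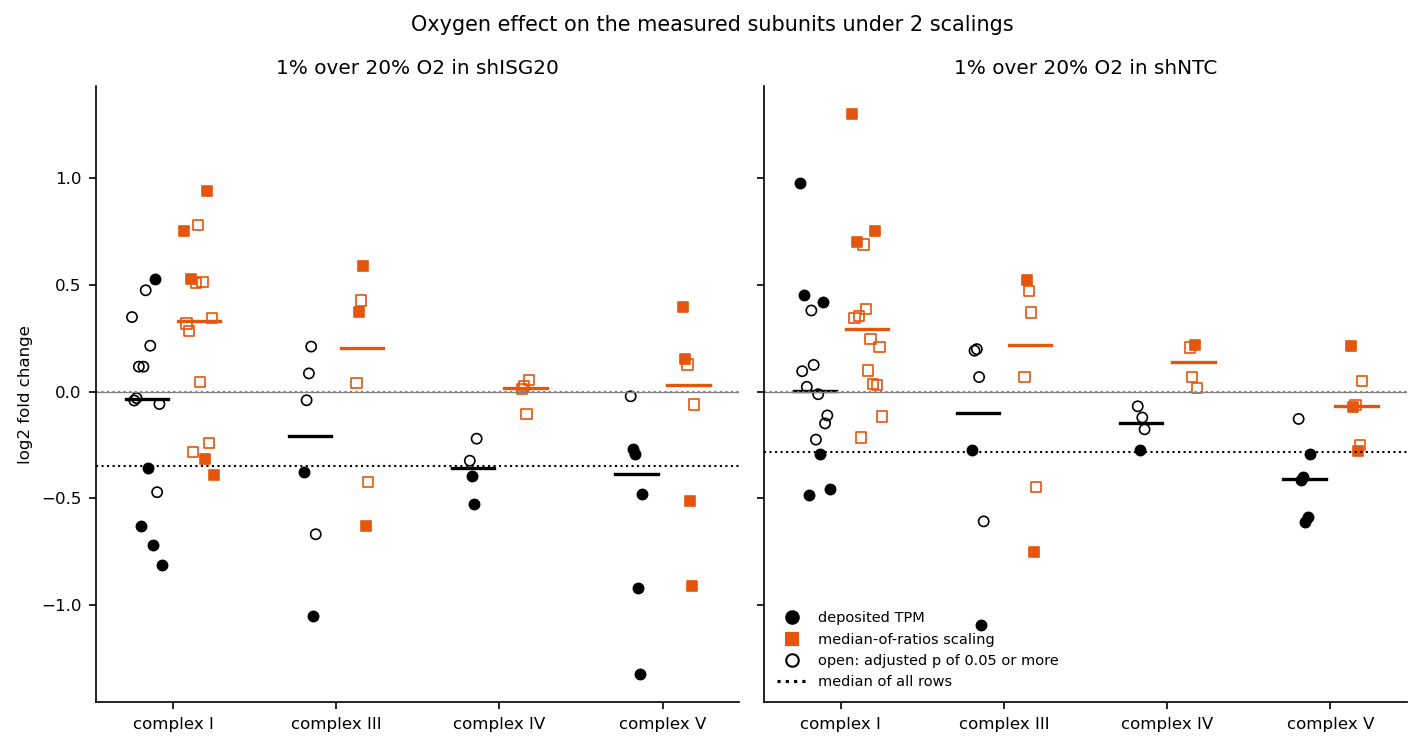
Log2 fold changes of the measured subunits at 1% over 20% O2 in shISG20 cells (left) and shNTC cells (right), by complex, on deposited TPM (black circles) and with median-of-ratios scaling (orange squares); filled symbols have an adjusted p under 0.05, solid bars are the medians of a complex and dotted lines the medians of all rows. Rescaling moves every subunit upwards, by 0.23 to 0.42 (median 0.40) in shISG20 and 0.16 to 0.34 (median 0.33) in shNTC cells.

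The difference between the oxygen effects of the subclones was tested directly. Of the 30 subunits, 4 had a more negative oxygen effect in shISG20 than in shNTC cells and 1 a more positive one, shares of 13.3% and 3.33%, beside 4.31% of all rows more negative and 2.62% more positive. The median of the subunits was -0.13, against -0.09 over all rows. The 4 were ATP5MC1 (-0.74, SE 0.17, limma adjusted p = 0.0274), NDUFS1 (-0.43, SE 0.098, adjusted p = 0.0275), COX5B (-0.40, SE 0.087, adjusted p = 0.0207) and NDUFV1 (-0.36, SE 0.079, adjusted p = 0.0232). Of these, NDUFV1, COX5B and ATP5MC1 were also called higher in shISG20 cells at 20% O2, in a comparison that shares its libraries with the difference. ATP5F1B had the more positive effect (0.14, SE 0.030, adjusted p = 0.0176), with a higher level in shISG20 cells at both oxygen levels. The calls were lost in 5 of 22 alternatives for COX5B, 7 for NDUFV1, 8 for ATP5MC1, 11 for NDUFS1 and 3 for ATP5F1B. With median-of-ratios scaling, ATP5MC1 (-0.66) and ATP5F1B (0.23) were the subunits called. Without replicate 3 of shISG20 cells at 20% O2, the library labelled 484 hours, 2 subunits were called, and without replicate 1 of shNTC cells at 20% O2 1 was.

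**Figure D4:**
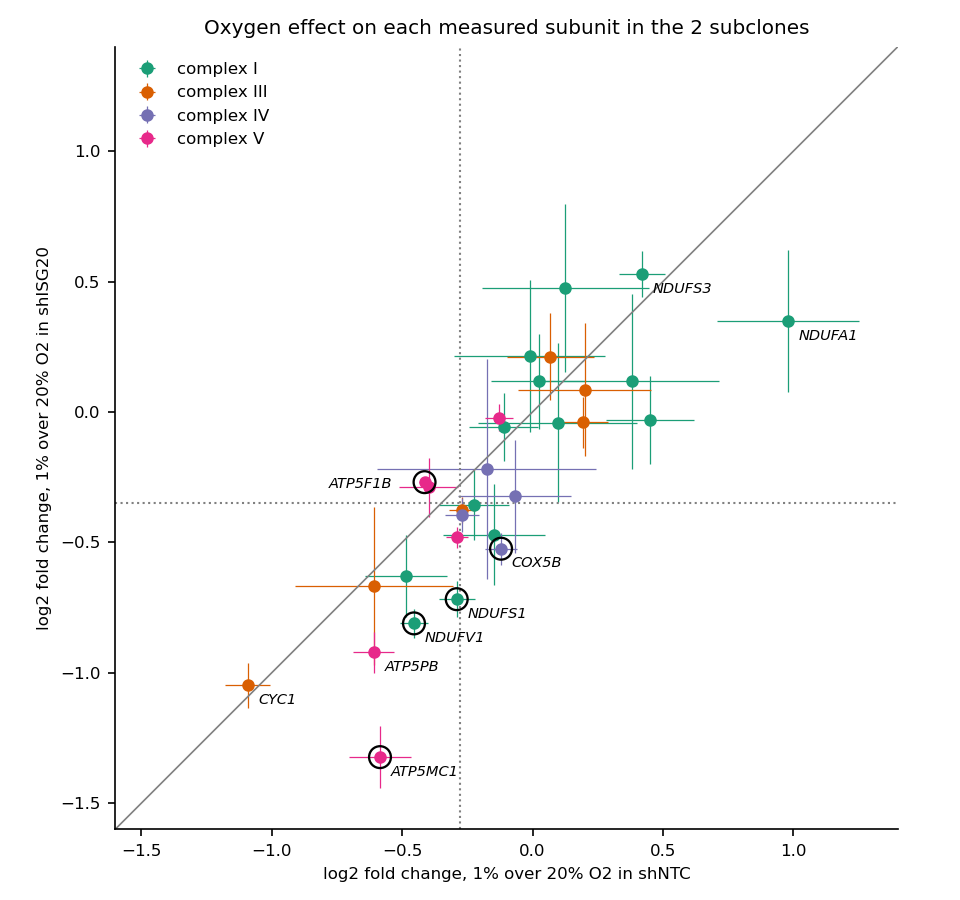
Log2 fold change at 1% over 20% O2 in shNTC cells (x axis) and shISG20 cells (y axis) for each measured subunit, with limma SE bars, coloured by complex; the line marks equal effects, dotted lines the medians of all rows and rings an adjusted p under 0.05 for the difference. ATP5MC1, NDUFS1, COX5B and NDUFV1 lie below the line, ATP5F1B lies above it, and CYC1 lies on it.

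Mouse reads of several subunits were counted in rows of human pseudogenes. Of the 37 genes, 25 had pseudogene rows by name, and in 10 of them these rows held more reads than the gene's own row. CYCS, somatic cytochrome c, had 97.7% of its reads in such rows, 31 of its 41 holding reads, and COX6C, a small subunit of complex IV, 99.4%, in 13 of 17 rows. The pseudogene share was 50.8% for COX5B, 50.5% for ATP5MC1 and 48.9% for ATP5PB. All reads of NDUFV2 fell in 1 pseudogene row. Both CYCS and COX6C are named here for this property.

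The own row of CYCS was at 1.64, 0.736 and 0.609 TPM at 1% O2 and 1.86, 2.60 and 1.87 TPM at 20% O2 in shISG20 cells, and at 0.959, 0.926 and 0.111 TPM at 1% O2 and 2.04, 1.75 and 0.772 TPM at 20% O2 in shNTC cells. These libraries overlapped in shNTC cells, and neither oxygen value passed (-0.67, limma adjusted p = 0.0835, and -0.61, adjusted p = 0.121). Its pseudogene rows summed to 663, 612 and 730.1 TPM at 1% O2 and 1549, 1764 and 1524 TPM at 20% O2 in shISG20 cells, and to 706, 631 and 566 TPM at 1% O2 and 1339, 1425 and 1241 TPM at 20% O2 in shNTC cells. With own and pseudogene rows summed, cytochrome c fell by 1.27 (SE 0.093, limma adjusted p = 5.76e-07) in shISG20 and by 1.08 (SE 0.093, adjusted p = 2.89e-06) in shNTC cells, with no overlap between oxygen levels. The size of this fall was close to that of CYC1, its electron donor in complex III, and the difference between subclones did not pass (-0.19, adjusted p = 0.432).

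Summing every gene with its pseudogene rows made 34 of the 37 genes testable. Then 14 fell and 2 rose at 1% O2 in shISG20 cells, and 14 fell and 3 rose in shNTC cells. The share that fell, 41.2% in each subclone, was near the 42.8% and 38.2% of all rows in the same fit. NDUFV2, which cannot be seen in its own row, was at 32.7, 43.0 and 33.5 TPM at 1% O2 and 32.3, 35.3 and 34.9 TPM at 20% O2 in shISG20 cells, and at 40.6, 39.2 and 45.2 TPM at 1% O2 and 29.8, 23.1 and 34.5 TPM at 20% O2 in shNTC cells. The oxygen levels overlapped in shISG20 cells (0.08, limma adjusted p = 0.669) and were apart in shNTC cells (0.52, adjusted p = 0.0103). For ATP5MC1 the summed values were 223, 268 and 225 TPM at 1% O2 and 634, 530.1 and 622 TPM at 20% O2 in shISG20 cells, and 198, 234 and 256 TPM at 1% O2 and 461, 396 and 439 TPM at 20% O2 in shNTC cells. Its fall was kept in both subclones (-1.32 and -0.92), but the difference between the effects was -0.40 (SE 0.16, limma adjusted p = 0.153) in place of -0.74. The sums for ATP5MC1 and COX5B came mostly from pseudogene rows, as TPM and not reads were added. In shNTC cells at 20% O2 the own row of ATP5MC1 had a mean of 54.3 TPM and its pseudogene rows 378 TPM. For COX5B these means were 102.5 and 397 TPM. COX5B kept its rise at 20% O2 (0.40, adjusted p = 0.0025) and its difference between the effects (-0.41, limma adjusted p = 0.0218), and its value in shNTC cells at 1% against 20% O2 then passed (-0.20, limma adjusted p = 0.0235). NDUFA4 was then lower in shISG20 cells at 1% O2 (-0.91, adjusted p = 0.0409 by limma). Its pseudogene rows held 14 reads in shISG20 and 31 in shNTC cells at 1% O2, and its own row did not pass (-0.29, limma adjusted p = 0.294).

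**Figure D5:**
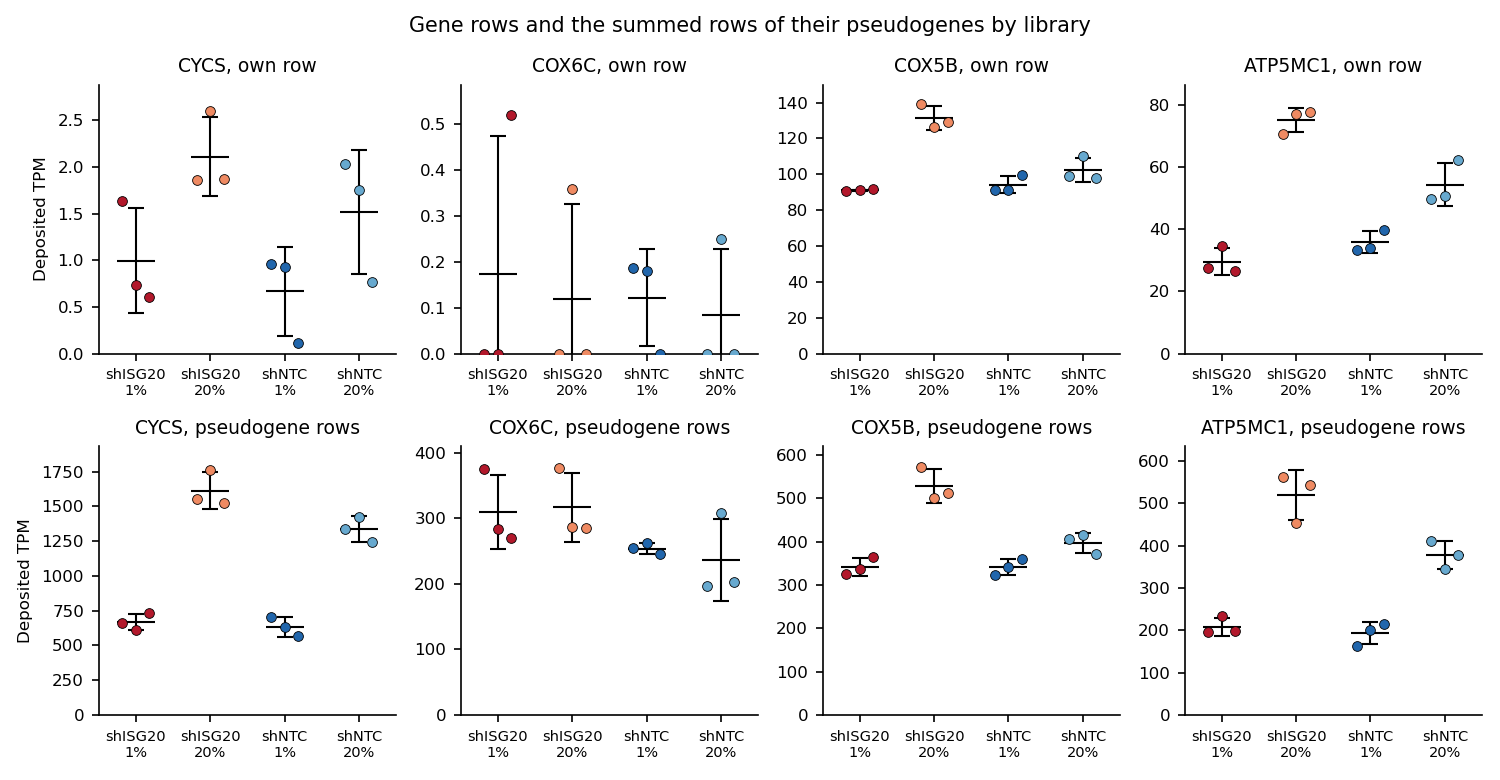
Deposited TPM in each library of the gene's own row (top) and of its summed pseudogene rows (bottom) for CYCS, COX6C, COX5B and ATP5MC1, with points for libraries and bars for the mean ± SD, the part of a bar below 0 not being drawn. The pseudogene rows of CYCS, between 566 and 1764 TPM, are lower at 1% O2 than at 20% O2 in both subclones, while its own row is at most 2.60 TPM.

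The remaining subunits of the same complexes were counted beside them. Of 9 tested other subunits of complex I, 5 (55.6%) fell at 1% O2 in shISG20 cells, and 6 (66.7%) fell and 1 rose in shNTC cells, beside 42.8% and 38.1% of all rows lower, and with median-of-ratios scaling 2 fell and 2 rose in each subclone. Of 5 tested other subunits of complex IV, 0 were called with oxygen in either subclone by limma, with 1 in shISG20 and 0 in shNTC cells at an unadjusted p under 0.05, although with median-of-ratios scaling 3 were higher in shISG20 and 1 in shNTC cells. Under that scaling 26.6% of all rows were lower and 26.3% higher in shISG20 cells, and 22.3% and 23% in shNTC cells. Of 7 tested other subunits of complex V, 1 fell in each subclone, against 5 of 6 for the complex V genes above. NDUFAB1, the acyl carrier protein of complex I, was at 30.6, 27.1 and 30.6 TPM at 1% O2 and 67.2, 64.2 and 55.3 TPM at 20% O2 in shISG20 cells, and at 34.2, 37.5 and 33.5 TPM at 1% O2 and 59.1, 52.9 and 63.0 TPM at 20% O2 in shNTC cells. It fell without overlap in both (-1.05, limma adjusted p = 3e-06, and -0.72, adjusted p = 7.86e-05). NDUFA12, an accessory subunit, was at 59.8, 63.2 and 53.9 TPM at 1% O2 and 91.6, 107 and 95.1 TPM at 20% O2 in shISG20 cells, and at 53.8, 56.8 and 43.9 TPM at 1% O2 and 70.8, 82.0 and 88.5 TPM at 20% O2 in shNTC cells. It also fell without overlap in both (-0.72, limma adjusted p = 0.000239, and -0.64, adjusted p = 0.000718). Of the other subunits of complexes III, IV and V, UQCRH rose at 1% O2 in shNTC cells (1.17), ATP5PF fell in shNTC cells (-0.71) and ATP5PD in shISG20 cells (-0.83). With median-of-ratios scaling the ATP5PD call was lost (-0.52, limma adjusted p = 0.0613), and those of UQCRH and ATP5PF were kept. In the knockdown comparisons, NDUFA6 was lower at 20% O2 (-0.24), COX7B was higher at 20% O2 (0.99, on 42 and 14 reads in shISG20 and shNTC cells), and COX6B1 was higher at 1% O2 (0.43).

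ATP5MC2, the remaining gene for subunit c, was not called with oxygen in either subclone on deposited TPM. It was at 184, 185 and 177 TPM at 1% O2 and 189, 193 and 200.1 TPM at 20% O2 in shISG20 cells, and at 144, 149.5 and 148 TPM at 1% O2 and 146, 140.5 and 168 TPM at 20% O2 in shNTC cells. It was higher in shISG20 cells at both oxygen levels (0.31, limma adjusted p = 0.00832 at 1% O2, and 0.36, adjusted p = 0.00396 at 20% O2), without overlap between subclones. Its oxygen values did not pass (-0.09, limma adjusted p = 0.24, and -0.04, adjusted p = 0.641), while ATP5MC1 and ATP5MC3 fell in both subclones. The difference between the genes themselves was not tested.

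Assembly factors and regulators were followed as context. Of 32 tested assembly factors, 12 fell and 2 rose at 1% O2 in shISG20 cells and 13 fell and 4 rose in shNTC cells. The shares that fell, 37.5% and 40.6%, were near the 42.8% and 38.1% of all rows. LRPPRC, which stabilises mitochondrial mRNA and is needed for complex IV, fell to 2.30, 1.76 and 1.83 TPM at 1% O2, against 15.1, 16.4 and 14.8 TPM at 20% O2, in shISG20 cells, and to 3.07, 3.501 and 2.23 TPM at 1% O2, against 12.3, 13.5 and 11.4 TPM at 20% O2, in shNTC cells. This was a fall of 2.47 (SE 0.14, limma adjusted p = 9.64e-08) and of 1.78 (adjusted p = 1.72e-06) on the log2 scale, larger than that of any measured subunit. ATPAF2, which assembles the head of complex V, fell in both (-1.10 and -0.39, with the value in shNTC cells at -0.08 and not past the threshold under median-of-ratios scaling) and more so in shISG20 cells (difference -0.71, limma adjusted p = 0.0197). UQCC2, a complex III assembly factor, rose in shNTC cells (0.57) and was higher with the knockdown at 20% O2 (0.34).

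Of 10 tested regulators of mitochondrial biogenesis, 8 fell at 1% O2 in shISG20 cells and 9 in shNTC cells, beside 42.8% and 38.1% of all rows lower. With median-of-ratios scaling 7 fell and 2 rose in shISG20 cells and 5 fell in shNTC cells, beside 26.6% and 22.3% of all rows lower. PPRC1, a coactivator of NRF1, was at 10.2, 12.0 and 13.9 TPM at 1% O2 and 63.2, 62.4 and 66.7 TPM at 20% O2 in shISG20 cells, and at 15.2, 16.3 and 13.2 TPM at 1% O2 and 56.1, 61.0 and 62.4 TPM at 20% O2 in shNTC cells. The oxygen levels were far apart (-2.33, limma adjusted p = 2.17e-08, and -1.94, adjusted p = 1.16e-07), and with median-of-ratios scaling the values were -1.93 and -1.61. TWNK, the helicase of mitochondrial DNA, fell by 2.09 and 1.61, and POLG, its polymerase, by 0.65 and 0.70. Between subclones at 1% O2, 3 of the 10 regulators (30%) were lower and 2 (20%) higher in shISG20 cells. Of all rows, 9.66% were lower and 4.25% higher. TWNK was among the lower ones (-1.11, limma adjusted p = 0.00413). These counts were the same with median-of-ratios scaling, and 0 regulators were called between subclones at 20% O2. GABPA, the ETS subunit of GABP, had a more negative oxygen effect in shISG20 cells (difference -0.48, limma adjusted p = 0.0438), and GABPB1, its partner, a more positive one (0.62, adjusted p = 0.0168). With median-of-ratios scaling 0 of the 10 regulators were called more negative and 1 more positive, so the GABPA call was lost. LONP1, the protease that degrades COX4I1 in hypoxia, was at 59.9, 56.6 and 56.8 TPM in shISG20 cells and 69.4, 71.7 and 67.8 TPM in shNTC cells at 1% O2, and at 71.4, 74.7 and 76.8 TPM in shISG20 cells and 65.3, 63.9 and 67.4 TPM in shNTC cells at 20% O2. Its order between subclones was opposite at the oxygen levels, and the difference passed (-0.44, SE 0.075, adjusted p = 0.00716). Of 13 subunits of the mitochondrial genome 1 could be tested, MT-CO1 of complex IV, which stood at 149 ± 17.96 TPM at 1% O2 and 132 ± 10.2 TPM at 20% O2 in shISG20 cells, and at 159 ± 3.59 TPM at 1% O2 and 145 ± 16.99 TPM at 20% O2 in shNTC cells (SD, n = 3 each), with no value past the threshold (0.17, limma adjusted p = 0.16, and 0.15, adjusted p = 0.247). With median-of-ratios scaling both values passed (0.59 and 0.49).

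Among the measured subunits not given by library above, most rested on few reads or moved little. NDUFA2, NDUFB3, NDUFB8, NDUFB10, NDUFS7 and COX7A2 had 58 to 203 reads in all libraries together, and SE of 0.20 to 0.42 on the log2 scale in the knockdown and oxygen comparisons. NDUFA2 had the largest knockdown values of the subunits, 0.85 at 20% O2 and 0.71 at 1% O2, and neither passed (limma adjusted p = 0.105 and 0.159). ATP5F1C, the central stalk of complex V, fell by 0.29 in shISG20 and 0.40 in shNTC cells (limma adjusted p = 0.0472 and 0.012), and NDUFB9 fell by 0.36 in shISG20 cells (adjusted p = 0.0414), values that turned to 0.13 and 0.05 in shISG20 cells with median-of-ratios scaling. NDUFA8, NDUFS8, UQCRC2 and UQCRB were not called in any comparison on deposited TPM. These genes are named after their values were seen.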

How the data were processed

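The authors deposited a table of TPM values (transcript levels scaled for gene length and library size, with the same sum in each library). Per the submitters' processing notes, the tools were FastQC, STAR and featureCounts and the build was GRCh38, a human one. Their versions, and how TPM was derived, are not given in the sources used here. Reads were recovered from the ratios of a row between libraries, which were ratios of whole numbers (relative tolerance 1e-07) in every row. The smallest whole numbers that fit were taken, so the reads of a row are known only up to a common factor. The recovered reads are used for depth and in the voom alternative, and precision is limited by their number. The test took the 14389 rows that reached 1 TPM in 3 or more of the 12 libraries. limma 3.58.1 (R 4.3.3) was fitted to log2(TPM + 1) of all libraries with a variance trend, 1 coefficient per group and Benjamini-Hochberg adjustment over all rows, and was tested on simulated data. Fold changes on this scale understate those of low rows. Pseudogene rows were matched by name and their TPM summed with that of their gene as an alternative. Other alternatives were a pseudocount of 0.1, no filter or one of 5 TPM, quantile and median-of-ratios scaling, voom, no variance trend, only the groups compared, only rows with a mouse name (9299 tested), a replicate block and leaving out each library. One gene of another list is not reported here. The subunit genes, the other lists and the motifs were chosen with earlier results of these data known. Values by library are given, per comparison, for the up to 5 called subunits with the smallest p and, per complex, for those with the largest and smallest oxygen value in shNTC cells and the most abundant one. Of the other lists, genes are named from the up to 3 called ones per comparison, or the most abundant one, together with NDUFA4L2, COX4I2, MT-CO1 and ISG20. NDUFS4, NDUFB11, ATPAF1, ISCU and ESRRA also met this rule and are not described above. Their oxygen values in shNTC cells were -0.58, -0.88, -0.87, -0.88 and -0.52, all called lower. Tables and figures used Python 3.11.15, pandas 2.3.3, numpy 2.4.6 and matplotlib 3.10.9.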

Additional observations from a re-analysis of the deposited data

Results flagged for a closer look

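For 13 of the genes named here, the effect of oxygen (1% over 20% O2) differed between shISG20 and shNTC cells by the test of that difference, with limma's adjusted p under 0.05 over all rows. Of all 14389 rows tested, 4.31% were more negative and 2.62% more positive. Some of the 13 are named because this same comparison called them, so their number is not a share of a fixed set. Among the subunits the difference, shISG20 minus shNTC on the log2 scale, was -0.74 for ATP5MC1, -0.43 for NDUFS1, -0.40 for COX5B, -0.36 for NDUFV1 and 0.14 for ATP5F1B. Among the other genes it was -0.71 for the assembly factor ATPAF2, -0.44 for the protease LONP1, -0.48 for GABPA and 0.62 for GABPB1. For ISG20 itself it was -1.07. ISG20 was under 1 TPM in every shISG20 library, where log2(TPM + 1) understates changes, so this value cannot show whether its oxygen response differed. Among the mesenchymal markers the difference was 0.35 (vimentin, VIM), 0.67 (FN1) and 0.91 (S100A4). The 2 subunits of GABP thus differed in opposite directions on deposited TPM. The GABPA call was lost with median-of-ratios scaling. Each subclone is a single population, so its part in these differences cannot be told apart from that of ISG20.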

How the results depend on the processing

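Several calls were kept in all 17 alternatives run for each. At 1% against 20% O2 these were CYC1 and ATP5PB in both subclones and NDUFA1 and ATP5F1B in shNTC cells. In shISG20 cells NDUFV1, NDUFS1 and ATP5MC1 were also kept. In shISG20 against shNTC cells they were COX5B, ATP5MC3 and NDUFV1 at 20% O2 and ATP5F1B at 1% O2. Scaling moved the oxygen results most. With median-of-ratios size factors the subunits called fell to 9 in shNTC cells, against 14 on deposited TPM, and the oxygen value changed sign for 12 of 30 in each subclone. Among those named with values by library these were ATP5F1B (0.15, shISG20), COX5B (0.22, shNTC), ATP5MC3 (0.0508, shNTC), NDUFS1 (0.0369, shNTC), COX5A (0.0267 in shISG20, 0.0704 in shNTC), COX4I1 (0.011 in shISG20, 0.21 in shNTC) and ATP5F1A (0.40 in shISG20, 0.21 in shNTC). With quantile normalization NDUFS1 in shNTC cells was at 0.0224 and ATP5F1A in shISG20 cells at 0.18, and by voom the value of ATP5F1A there was 0.15. The 2 subunits called between the subclones at 1% O2 became 1 under quantile normalization, with only the groups compared and with the replicate block. The 5 called for the difference of the oxygen effects became 3 under quantile normalization, and 2 each with no variance trend and with median-of-ratios size factors. Leaving out 1 library at a time gave 4 to 5 subunits called at 20% O2, 1 to 2 at 1% O2, 12 to 16 for oxygen in shISG20 cells, 12 to 13 in shNTC cells and 1 to 5 for the difference. Same-numbered replicates did not deviate together (correlations of -0.042 to 0.015 over 18 pairs), so no pairing by number was seen. Such correlations cannot show that no culture or batch was shared, and the labels do not say. The replicate block left 4 of 5 calls for the difference. Over all rows, the 1670 calls at 20% O2 became 1087 without replicate 2 of shISG20 cells. The 2001 calls at 1% O2 became 957 with only the groups compared, 1155 without replicate 2 of shNTC cells and 1319 without replicate 3 of shISG20 cells. The 997 calls for the difference became 1834 by voom and, on leaving out a library, 595 to 655 without replicate 1 of shNTC cells at 20% O2, replicate 2 of shNTC cells at 1% O2, or replicate 2 or 3 of shISG20 cells at 20% O2. The causes were not tested. Few aligned reads limit the small subunits, 7 of which could not be measured.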
